A study of Homo sapiens with 24 samples.

Results

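Integrins and laminins were examined across the 8 conditions of a transcriptome study of triple-negative breast cancer (TNBC) cells. The genes were chosen as those whose symbol has the form of an integrin α chain (ITGA), an integrin β chain (ITGB) or a laminin chain (LAMA, LAMB, LAMC). This gave 18 α chains, 8 β chains and 11 laminin chains, 37 genes of the 66659 distinct symbols in the 4 deposited tables. The matches ITGB3BP and ITGBL1, which are not integrin chains, and the pseudogene ITGB1P1 were left out.

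Poly-A RNA was sequenced in 24 libraries, 3 per condition and described as biological triplicates. Hs578T and HCC70 are established TNBC lines of wild-type genotype. From each, breast cancer stem-like cells (BCSCs) were sorted as CD24-CD44+ and ALDH+ cells, and cells lacking both phenotypes were sorted as non-BCSCs. MDA-MB-231, another established TNBC line, carried control sgRNA (sgCtrl) or KIF20A sgRNA #1 (KIF20A sg1), delivered by lentivirus. In a separate experiment it carried an empty control vector (EV) or a KIF20A overexpression vector (KIF20A OE). KIF20A is a mitotic kinesin. The sgRNA groups differ by 1 guide only. Each experiment was deposited as a table of its own, so cell line and batch cannot be told apart.

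Integrins are surface receptors made of an α and a β chain, and they anchor cells to the extracellular matrix. The α chain largely sets the ligand, so the family divides into receptors for collagen, for laminin, for RGD-containing proteins such as fibronectin, and into receptors typical of leukocytes. Laminins are the cross-shaped trimers of basement membranes, each made of an α, a β and a γ chain. Integrin α6β4 binds laminin-332, a trimer that holds LAMA3 and LAMB3, and anchors epithelial cells through hemidesmosomes. In breast tissue both belong to the basal, myoepithelial layer, and ITGA6 (CD49f) is used to enrich mammary stem cells.

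RefSeq start windows on GRCh38.p14 were available for 26 of the 37 genes, with 33 starts among them. They are shown for 6 genes to which the results below return: the laminin-332 chains LAMA3 and LAMB3, the laminin and collagen receptor chains ITGA6 and ITGA2, and ITGA8 and LAMA4, which moved the other way in the libraries labelled KIF20A OE. Each is the 250 bases before the start, 5′ to 3′ along the gene's strand. Capitals mark 4 motifs searched on both strands: TGANTCA (AP-1), GGAATG (TEAD), CACCTG (the E-box bound by ZEB and SNAI factors) and GGGCGG (SP1).
LAMA3 (chr18:23872770-23873019, plus strand): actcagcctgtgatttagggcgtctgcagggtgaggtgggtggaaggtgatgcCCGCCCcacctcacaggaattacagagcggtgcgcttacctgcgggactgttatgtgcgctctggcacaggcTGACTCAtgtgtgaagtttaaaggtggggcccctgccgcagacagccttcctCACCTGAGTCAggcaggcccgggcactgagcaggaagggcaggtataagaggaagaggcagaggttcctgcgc
LAMB3 (chr1:209652426-209652675, minus strand): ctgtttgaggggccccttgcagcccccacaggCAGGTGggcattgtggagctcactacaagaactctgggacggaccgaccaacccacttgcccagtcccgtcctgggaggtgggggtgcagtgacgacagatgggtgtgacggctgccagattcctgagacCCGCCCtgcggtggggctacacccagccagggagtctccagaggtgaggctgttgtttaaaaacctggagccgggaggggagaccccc
ITGA6 (chr2:172427086-172427335, plus strand): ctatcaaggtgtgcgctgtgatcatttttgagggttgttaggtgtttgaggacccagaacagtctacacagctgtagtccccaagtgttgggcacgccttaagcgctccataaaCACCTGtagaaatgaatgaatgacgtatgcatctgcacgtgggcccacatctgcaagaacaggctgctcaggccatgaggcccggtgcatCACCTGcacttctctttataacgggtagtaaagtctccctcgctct
ITGA2 (chr5:52989102-52989351, plus strand): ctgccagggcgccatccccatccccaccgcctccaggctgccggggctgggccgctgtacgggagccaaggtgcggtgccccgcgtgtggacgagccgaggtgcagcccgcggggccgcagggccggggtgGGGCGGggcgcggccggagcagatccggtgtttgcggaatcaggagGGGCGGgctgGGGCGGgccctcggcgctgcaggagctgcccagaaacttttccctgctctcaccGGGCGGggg
ITGA8 (chr10:15719923-15720172, minus strand): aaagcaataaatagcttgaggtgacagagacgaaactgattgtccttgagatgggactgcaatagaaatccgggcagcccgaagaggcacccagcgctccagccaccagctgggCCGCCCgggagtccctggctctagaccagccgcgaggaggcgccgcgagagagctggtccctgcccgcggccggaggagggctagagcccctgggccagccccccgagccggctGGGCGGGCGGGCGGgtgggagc
LAMA4 (chr6:112254568-112254817, minus strand): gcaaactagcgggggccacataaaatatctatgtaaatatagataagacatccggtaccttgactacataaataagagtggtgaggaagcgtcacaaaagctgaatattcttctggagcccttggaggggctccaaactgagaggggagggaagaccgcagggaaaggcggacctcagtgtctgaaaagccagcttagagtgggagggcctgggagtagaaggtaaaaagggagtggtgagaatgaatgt
The LAMA3 and LAMA4 windows lie inside the annotated genes, and the end of the ITGA2 window overlaps its gene. The LAMA3 window held 2 AP-1 matches, 1 E-box, which overlaps the AP-1 match nearer the start, and 1 SP1 match. The LAMB3 window shown, the first of 3 listed starts, held 1 E-box and 1 SP1 match, while the second held 1 SP1 match and the third 1 AP-1 and 1 SP1 match. The ITGA6 window shown, the first of 2, held 2 E-boxes, and the other held 3 SP1 matches and no E-box. Windows of ITGA2 and ITGA8 each held 4 SP1 matches, 3 of them overlapping in ITGA8, and the LAMA4 window held none of the 4 motifs. Over the 33 windows, 2 held an AP-1 match (6.06%), 4 a TEAD match (12.1%), 8 an E-box (24.2%) and 17 an SP1 match (51.5%). Over all 35116 RefSeq windows the shares were 6.57%, 11.9%, 17.5% and 42.6%. A match is a string of letters in this window, not a bound site. No window was given for ITGB4, ITGA3, ITGB3 and 8 others.

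The libraries were checked against their labels before the comparisons. Totals of recovered reads were 24681218 to 33715701 in the sorted lines, 41424338 to 51018667 in the sgRNA experiment and 15971297 to 22182293 in the EV experiment. In Hs578T the aldehyde dehydrogenase gene ALDH1A3 had 280.0 to 296 TPM (reads scaled for gene length and depth) in non-BCSCs and 701 to 709 in BCSCs, while CD44 (549 to 569 and 566 to 591) and CD24 (78.4 to 92.4 and 78.5 to 87.0) had similar levels. In HCC70, CD24 had 828 to 912 TPM in non-BCSCs and 667 to 725 in BCSCs, and ALDH1A1 had 327 to 337 and 357 to 370.1. The groups overlapped there for CD44 (98.7 to 106 and 95.5 to 118) and ALDH1A3 (84.6 to 91.8 and 90.6 to 105). Basal epithelial markers (6 genes, summed TPM) reached 4931 to 5436 in HCC70 and 63.3 to 68.5 in Hs578T, and 4 mesenchymal markers 11.8 to 14.0 and 10152 to 12073. In Hs578T, KRT5 and KRT6A were not listed, and EGFR alone had 61.0 to 66.9 TPM of the basal sum. CDH2 of the mesenchymal list was not listed in HCC70. Leukocyte and endothelial markers summed to at most 119 and 3.70 TPM.

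The 3 libraries labelled KIF20A OE, called labelled OE libraries from here on, went against their labelled cell line. KIF20A itself had 101, 143 and 124 CPM (reads scaled for depth only) in EV and 1348, 269 and 896 in these libraries. The summed level of 6 genes typical of MDA-MB-231 (CD44, VIM, AXL, CAV1, NT5E, MSN) was 7313 to 9287 CPM in EV and 609.9 to 1084 in the labelled OE libraries. CD44, the sorting antigen, had 523 to 788 CPM in EV and 0.125 to 1.23 in the labelled OE libraries. A list of 5 genes typical of the embryonic kidney line HEK293 (IRS4, PAX2, LIN28B, NEFL, NEFM) summed to 0 to 0.0476 CPM in EV and to 1393 to 1944 in these libraries, where IRS4 alone had 1219 to 1750.4. In sgCtrl and KIF20A sg1 the same list summed to at most 0.0439. The study's methods name a derivative of that line for packaging lentivirus. CDKN2A was at 0 in EV and at 276 to 353. Basal markers summed to 464 to 612 CPM in EV and 39.1 to 55.8 in the labelled OE libraries, epithelial markers to 955 to 1142 and 369 to 474, and mesenchymal markers to 4072 to 4880 and 463 to 885. The basal sum in EV was mostly EGFR (446 to 611 CPM), and KRT5 and KRT6A were not listed. A member of each list had a higher mean in the labelled OE libraries. These were KRT17 (3.98 and 17.1 CPM, with overlapping groups), CDH1 (0.299 and 3.52) and CDH2 (0.499 and 39.6). The 3 libraries all stood apart from EV in the MDA-MB-231 and HEK293 lists, so no value without them could be given, and their part in the results of that comparison was not tested.

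To learn which chains each TNBC line expresses as RNA, the levels in sorted cells were set side by side. The lines were processed as separate tables, so these levels carry no test. Some receptor chains differed in RNA level between Hs578T and HCC70, and others had like levels. In non-BCSCs of Hs578T and HCC70, ITGA1 had means of 24.7 and 22.9 TPM, ITGA2 73.3 and 56.8, and ITGAV 170 and 157. ITGA11, a collagen receptor chain of mesenchymal cells, had 474 ± 18.4 TPM in non-BCSCs (SD, n = 3) and was not listed in HCC70. ITGB3, which pairs with αV, had 34.4 ± 0.329 TPM in Hs578T and at most 0.0159 in any HCC70 library. HCC70 instead had the epithelial αV partner ITGB6 at 222 ± 5.96 TPM, against 0.417 ± 0.154 in Hs578T, and ITGB8 at 54.5 ± 4.70 against 1.75 ± 0.198. ITGB1, the β chain shared by most collagen and laminin receptors, was the most abundant β chain of both lines, with 78.3% ± 1.40 of β-chain TPM in Hs578T and 58.8% ± 0.907 in HCC70 (SD, n = 3).

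Some laminin chains also differed in level between the lines. LAMA3, the α chain of laminin-332, had 3.28 ± 0.207 TPM in Hs578T non-BCSCs and 71.2 ± 2.90 in HCC70. LAMB3, the β chain of that trimer, was high in both, at 81.0 ± 5.25 and 187 ± 7.32 TPM. LAMB1, another laminin β chain, showed the opposite order, with 237 ± 1.79 TPM in Hs578T and 3.15 ± 0.324 in HCC70. ITGB4, a chain of the laminin-332 receptor, followed the order of LAMA3, at 2.54 ± 0.321 and 26.6 ± 1.19 TPM, whereas ITGA6 had 40.7 ± 2.51 and 31.1 ± 1.09.

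**Figure D1:**
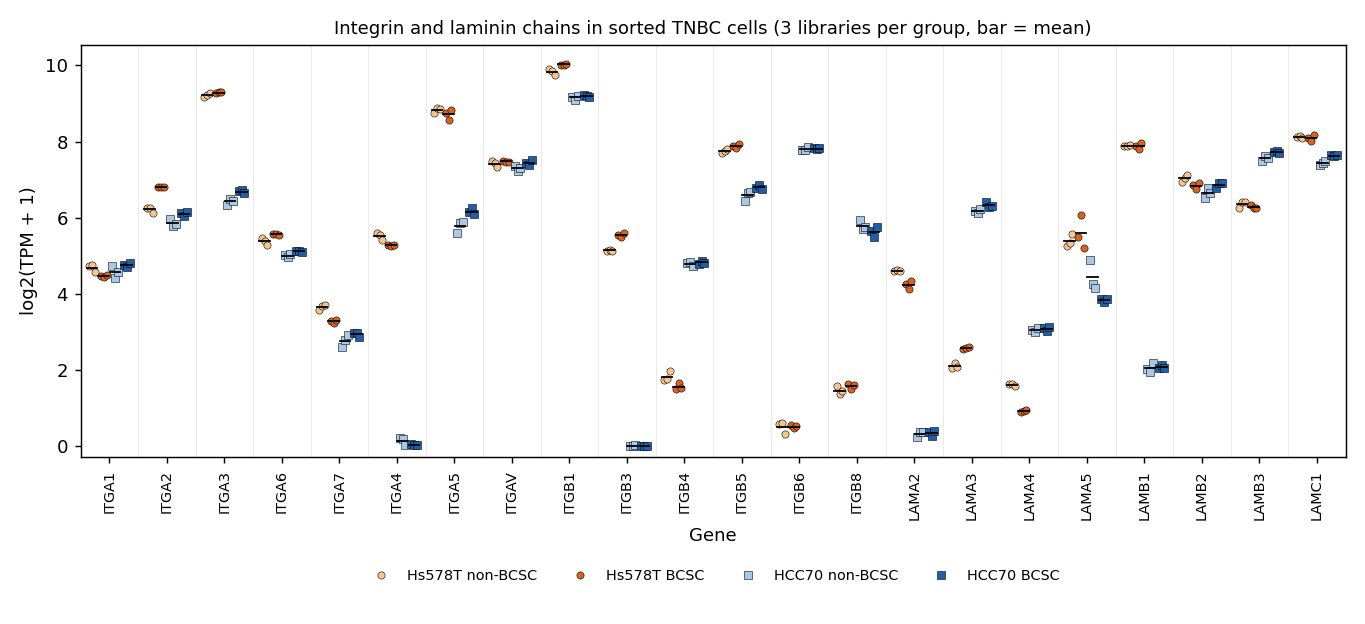
Level of 22 integrin and laminin chains as log2(TPM + 1) in each library of Hs578T (circles) and HCC70 (squares), non-BCSCs in light and BCSCs in dark colors, with the mean as a bar. ITGB6 and LAMA3 sit high in HCC70 and low in Hs578T, ITGB3 and LAMB1 the reverse, and within a line BCSCs and non-BCSCs lie close together.

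To determine how sorted BCSCs differ from non-BCSCs of the same line, each gene with a mean of at least 1 TPM was tested on the log2(TPM + 1) scale. A gene is called where the Benjamini-Hochberg adjusted p of limma, over all genes tested, is under 0.05. The values are sums over a sorted population, so a change in the share of cells and a change in RNA per cell cannot be told apart. In Hs578T, 25 of the 37 chains passed the minimum. The 12 others, among them the leukocyte chains ITGAL, ITGAM, ITGAX, ITGAD and ITGB2, had at most 0.510 TPM in any library. BCSCs had higher ITGA2, ITGA8, ITGB3 and LAMA3 and lower LAMA4, LAMA2, ITGA7 and ITGA4, by 1.51-fold or less for all but LAMA4. Of the 25 chains tested, 8 were called, beside 7.15% of all 13324 genes, 4 of them higher (beside 2.90%) and 4 lower (beside 4.26%). The groups did not overlap for 15 chains, beside 29.0% of all genes, with 7 higher (beside 12.0%) and 8 lower (beside 17.0%). The median difference of the 25 chains was -0.03, beside -0.01 over all genes.

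Among the collagen receptors, ITGA2, the α2 chain of α2β1, had 75.8, 75.1 and 69.0 TPM in Hs578T non-BCSCs and 111, 109.9 and 112 in BCSCs. The groups did not overlap, and the difference was 0.59 ± 0.05 on the log2(TPM + 1) scale (SE, adjusted p = 0.001). The other collagen receptor chains were not called. ITGA1, the chain of α1β1, had 22.8 to 25.8 TPM in non-BCSCs and 20.9 to 21.6 in BCSCs, a difference of -0.20 ± 0.06 (adjusted p = 0.081), and ITGA11 had 455 to 492 and 389 to 458. ITGA1 shares 1070 of its 18545 exon bases with genes on its own strand, PELO among them, so reads could be split there.

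Of the laminin receptor chains of Hs578T, only ITGA7 was called. ITGA7, the α7 chain known from muscle, had 10.9, 11.8 and 11.9 TPM in non-BCSCs and 8.81, 8.47 and 8.95 in BCSCs, a difference of -0.36 ± 0.06 (adjusted p = 0.01). Without non-BCSC replicate 2 it was no longer called (adjusted p = 0.061, and between 0.00096 and 0.061 in its 13 alternatives). ITGA6 had 43.1, 40.9 and 38.1 TPM in non-BCSCs and 46.5, 46.3 and 45.9 in BCSCs. All 3 BCSC libraries lay above the others, and the difference of 0.18 ± 0.05 did not pass (adjusted p = 0.088). It passed in 3 of 13 alternatives, those with median-of-ratios scaling, edgeR and DESeq2, with an adjusted p of 0.0019 to 0.25 over all 13. Its partner ITGB4 had 2.33, 2.39 and 2.91 TPM in non-BCSCs and 1.84, 2.12 and 1.90 in BCSCs, a difference of -0.26 ± 0.10 that did not pass (adjusted p = 0.17) and rests on 144 to 247 recovered reads per library. The 2 chains of α6β4 thus had differences of opposite sign in Hs578T, neither of them called.

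Among the chains of RGD receptors, ITGA8 and ITGB3 rose. ITGA5, the α5 chain of the fibronectin receptor, had 429 to 466 TPM in non-BCSCs and 381 to 451 in BCSCs (-0.11 ± 0.07, adjusted p = 0.4), and ITGAV had 159 to 179 and 175 to 179.8 (0.06 ± 0.05, adjusted p = 0.57), with overlapping groups in both. ITGA8, the α8 chain that binds nephronectin and fibronectin, had 83.7, 83.2 and 77.7 TPM in non-BCSCs and 124, 118 and 125 in BCSCs, a difference of 0.58 ± 0.05 (adjusted p = 0.001). ITGB3 had 34.2, 34.7 and 34.2 TPM and 46.0, 43.7 and 47.4, a difference of 0.40 ± 0.05 (adjusted p = 0.0028). Both were higher in every BCSC library and stayed called in all 13 alternatives, as ITGA2 did. ITGB3 shares 2266 of its 6829 exon bases with an unnamed gene on the same strand. ITGA4, a receptor chain for VCAM1 and fibronectin, had 47.0, 45.7 and 41.3 TPM and 37.6, 37.2 and 38.0. Its difference of -0.24 ± 0.06 passed narrowly (adjusted p = 0.043) and kept its call in 6 of 13 alternatives, being lost without 5 of the 6 libraries in turn, all but non-BCSC replicate 3. ITGB1 and ITGB5, the broadly expressed β chains, were higher in every BCSC library without passing, at 0.18 ± 0.05 (adjusted p = 0.069) and 0.13 ± 0.05 (adjusted p = 0.15).

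The α chains of laminin were the laminin genes that differed in Hs578T. LAMA4, the α4 chain of vascular and mesenchymal basement membranes, lies under the level set for naming and was singled out after its values were seen. It had 2.11, 2.09 and 1.99 TPM in non-BCSCs and 0.853, 0.892 and 0.941 in BCSCs, a 2.30-fold lower mean and a difference of -0.69 ± 0.09 (adjusted p = 0.0058), from 83 to 210 reads per library. LAMA2, the α2 chain of muscle and nerve, had 23.3, 23.7 and 23.3 TPM and 18.0, 16.5 and 19.1, a difference of -0.37 ± 0.06 (adjusted p = 0.011) that was lost without non-BCSC replicate 2 (adjusted p = 0.057, the highest of its alternatives, from 1.2e-08). LAMA3 of laminin-332 rose, with 3.14, 3.52 and 3.18 TPM and 4.83, 4.98 and 5.06, a difference of 0.48 ± 0.07 (adjusted p = 0.0085). LAMB3 was not called. It had 74.9, 83.9 and 84.1 TPM and 80.0, 74.8 and 75.3, a difference of -0.08 ± 0.06 (adjusted p = 0.5), and its groups overlapped. LAMA5, the α5 chain of most epithelial basement membranes, had 36.1, 43.9 and 66.0 TPM in BCSCs, the highest being replicate 2, and 37.3 to 46.5 in non-BCSCs.

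In HCC70, 21 of the 37 chains were tested and none was called by limma, beside 2.83% of all 13218 genes (2.28% higher and 0.552% lower). An unadjusted p under 0.05 in limma was reached by 10 of the 21, beside 3134 of all 13218 genes. On recovered reads edgeR called 2 chains higher and 1 lower, beside 441 and 274 of all genes. DESeq2 called 4 chains higher and 1 lower, beside 642 and 536 of all genes. Of the rest, ITGA8, ITGA11, ITGAD, LAMB4 and LAMC3 were not listed and 11 had at most 0.871 TPM in any library. The differences were small and mostly positive: 18 of 21 chains had a higher mean log2 level in BCSCs, beside 56.0% of all genes, with a median of 0.14 against 0.02 over all genes.

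The laminin-332 chains LAMA3 and LAMB3 had positive differences without passing. LAMB3 had 179.7, 194 and 188 TPM in non-BCSCs and 211, 216 and 205 in BCSCs, a difference of 0.17 ± 0.05 (adjusted p = 0.12). LAMA3 had 70.6, 68.5 and 74.3 TPM and 83.8, 76.9 and 78.6, a difference of 0.16 ± 0.06 (adjusted p = 0.14). In both genes every BCSC library lay above every non-BCSC library, as it did for 9 of the 21 chains (beside 20.9% of all genes). In 1 further chain, LAMA5, every BCSC library lay lower (beside 10.1%), which makes 10 without overlap beside 30.9%. The receptor chains had smaller differences. ITGA6 had 31.2, 30.0 and 32.1 TPM and 33.9, 33.9 and 33.5, a difference of 0.11 ± 0.05 (adjusted p = 0.23), and ITGB4 had 26.9, 27.7 and 25.4 TPM and 26.7, 28.0 and 27.2, a difference of 0.04 ± 0.06 (adjusted p = 0.75).

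Several receptors of HCC70 came close to the threshold. ITGA3, the α3 chain of the laminin receptor α3β1, had 80.2 to 88.7 TPM in non-BCSCs and 99.0 to 105 in BCSCs (0.26 ± 0.06, adjusted p = 0.056), and ITGA5, the α5 chain of the fibronectin receptor, had 47.2 to 58.0 and 67.3 to 74.6 (0.38 ± 0.09, adjusted p = 0.061). ITGA2 had 53.9 to 61.1 TPM and 65.5 to 69.5, a difference of 0.25 ± 0.06 (adjusted p = 0.07). These 3 passed under some alternatives, ITGA2 and ITGA5 in 3 of 13 and ITGA3 in 2 of 13. LAMA5 had 28.4, 18.2 and 16.7 TPM in non-BCSCs and 13.6, 12.9 and 13.4 in BCSCs, a difference of -0.59 ± 0.17 (adjusted p = 0.098) whose size rests in part on non-BCSC replicate 1. Without that library the difference was -0.37.

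**Figure D2:**
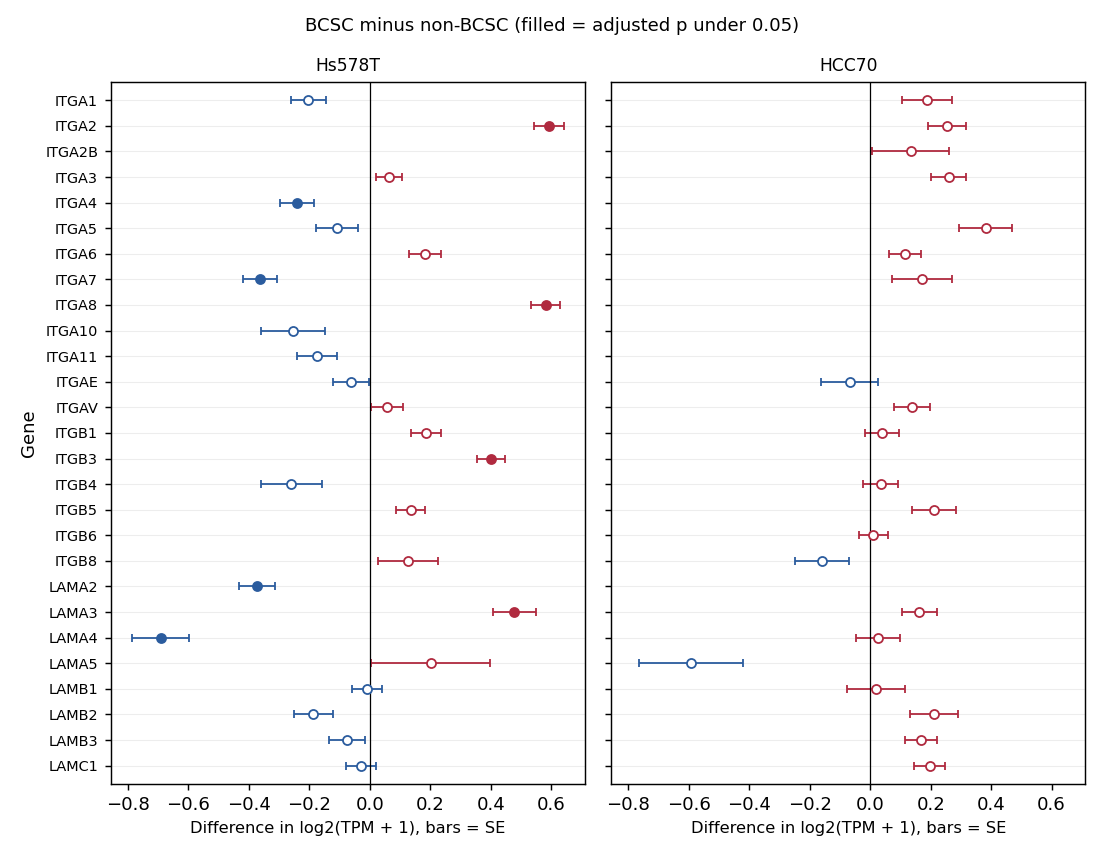
Difference in log2(TPM + 1) between BCSCs and non-BCSCs, with its SE, for each chain tested in Hs578T (left) and HCC70 (right) on 1 scale. Filled points passed an adjusted p of 0.05: 8 chains in Hs578T, in both directions, and none in HCC70, where 18 of 21 points lie right of 0.

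To test whether the BCSC difference itself depended on the line, the interaction was fitted over the 12 sorted libraries. Of 19 chains tested in both lines, 7 passed, beside 7.11% of 11668 genes, 5 with a higher difference in HCC70 (beside 5.62%) and 2 with a lower one (beside 1.49%). Laminin chains differed in both directions. LAMA4 had the largest called value: the BCSC difference was 0.72 ± 0.10 higher in HCC70, where LAMA4 had 7.32, 6.93 and 7.57 TPM in non-BCSCs and 7.58, 7.05 and 7.66 in BCSCs (adjusted p = 0.003). LAMB2 (0.40 ± 0.11, adjusted p = 0.048) also had a higher difference in HCC70, whereas LAMA3 had a lower one (-0.32 ± 0.08, adjusted p = 0.034). Among receptors, ITGA7 (0.53 ± 0.11, adjusted p = 0.02), ITGA5 (0.49 ± 0.12, adjusted p = 0.032) and ITGA1 (0.39 ± 0.10, adjusted p = 0.043) had a higher difference in HCC70 and ITGA2 a lower one (-0.34 ± 0.08, adjusted p = 0.027). ITGA2 and LAMA3 thus had positive differences in both lines, larger in Hs578T. Of the 7, only LAMA4 kept its call in all 15 of its alternatives. These held no fit by edgeR or DESeq2, and LAMA4 was too low for the minimum of 5. ITGA6 and ITGB4 did not pass (adjusted p = 0.58 and 0.098).

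Partner genes of the matrix and the adhesion plaque, from lists drawn up for the pathway, are given by their counts in the sorted lines, to be read beside the 7.15% of all genes called in Hs578T and 2.83% in HCC70. In Hs578T, 3 of 22 adhesion plaque genes were called. LPXN (leupaxin) had 41.9 ± 0.276 TPM in non-BCSCs and 31.4 ± 2.98 in BCSCs, and TNS1 (tensin 1) 12.2 ± 0.0807 and 9.35 ± 0.688. PTK2, focal adhesion kinase, rose from 136 ± 3.24 to 154 ± 2.97 TPM (0.17 ± 0.04, adjusted p = 0.045). Of 4 hemidesmosome partners 1 fell, DST (dystonin), from 109.7 ± 4.31 to 88.0 ± 3.17 TPM. Of 8 other ligands 2 fell, fibronectin (FN1, from 8091 ± 99.6 to 6522 ± 570) and tenascin C (TNC, from 72.5 ± 2.49 to 57.4 ± 3.69). NTN4 (netrin 4) rose from 47.2 ± 1.85 to 65.3 ± 1.63 TPM among 9 basement membrane genes. The tetraspanins CD9 and CD82, which bind integrins in the membrane, went in opposite directions (0.49 ± 0.05, adjusted p = 0.0017, and -0.32 ± 0.05, adjusted p = 0.01). In HCC70 the calls were NPNT (nephronectin, from 71.6 ± 1.19 to 90.4 ± 1.76 TPM) and LTBP1 (from 33.1 ± 1.99 to 44.5 ± 1.17), higher among 8 ligands, and COL18A1, lower among 5 basement membrane genes (from 51.0 ± 9.57 to 31.9 ± 2.52). None of 22 adhesion plaque genes, 3 hemidesmosome partners or 11 regulators was called there.

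To determine the effect of KIF20A sgRNA #1, MDA-MB-231 cells with KIF20A sg1 were compared with sgCtrl. KIF20A had 153, 173 and 156 units of the deposited CPM scale in sgCtrl and 122, 145 and 91.1 in KIF20A sg1, so the groups did not overlap, and the means of 161 and 119 did not differ by a called amount. No integrin or laminin chain was called among 20 tested, as none was among all 12852 genes (0.00%; 899 genes, and 1 of the 20 chains, had an unadjusted p under 0.05). DESeq2 called 16 genes in all and edgeR none, and neither called a chain. The 17 chains under the minimum had at most 1.11 units in any library. The differences of the 20 chains had a median of -0.02, beside 0.00 over all genes, and 10 were positive. Groups did not overlap for 2 of the 20 chains, beside 13.0% of all genes, 1 of them higher (beside 5.73%) and 1 lower (beside 7.30%). ITGA2 had 195, 179.6 and 148 units in sgCtrl and 240.1, 199.9 and 239.7 in KIF20A sg1, a difference of 0.38 ± 0.14 (adjusted p = 0.69). ITGB5 had 199.7, 288 and 194 units and 190.0, 187 and 153, a difference of -0.35 ± 0.16 (adjusted p = 0.69).

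LAMA3, LAMB3 and the chains of their receptor overlapped between sgCtrl and KIF20A sg1. ITGA6 had 646, 611 and 677 units in sgCtrl and 797, 666 and 806 in KIF20A sg1 (0.23 ± 0.14, adjusted p = 0.72), and ITGB4 had 333, 383 and 255 and 336, 326 and 244 (-0.09 ± 0.17, adjusted p = 0.91). LAMA3 had 87.4, 89.7 and 64.6 units and 84.9, 105 and 95.2 (0.25 ± 0.15, adjusted p = 0.72). LAMB3 had 649, 764 and 451 units and 601, 562 and 606 (-0.04 ± 0.18, adjusted p = 0.97). The SEs of the 20 chains were 0.13 to 0.26, with 0.14 for ITGA2 against 0.05 in Hs578T. None of the 4 to 23 genes tested in each of the 6 partner lists was called.

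The EV libraries were then compared with the labelled OE libraries, and here nearly every chain differed. Of the 37 chains, ITGB7 and LAMB4 were not listed and 6 had at most 1.19 CPM in any library. Of 29 chains tested, 18 were lower and 10 higher in the labelled OE libraries. All 6 β chains, the laminin and collagen receptor chains ITGA3, ITGA6, ITGA2, ITGA10 and ITGA1, and LAMA3 and LAMB3 of laminin-332 were lower, while ITGA8, ITGA7, LAMA1, LAMA4 and LAMC3 were among the higher. These 28 of 29 stand beside 69.7% of all 15265 genes called, 23.4% lower and 46.2% higher. The groups did not overlap for 27 of the 29 chains, beside 74.1% of all genes, with 17 lower (beside 25.2%) and 10 higher (beside 48.9%). A difference under -3 on the log2(CPM + 1) scale was reached by 10 of 29 chains beside 4.07% of all genes. The median of all genes was 0.37 as deposited and 0.05 after median-of-ratios scaling, under which calls of all genes went from 7055 higher and 3579 lower to 5300 and 4902 and those of the chains to 8 and 19. CPM has no length term, so levels are compared between libraries and not between genes. The markers of HEK293 and of MDA-MB-231 given above move with every value of this comparison.

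Of the 29 chains, LAMB3 of laminin-332 had the largest fall. LAMB3 had 1209, 1155 and 1110.4 CPM in EV and 7.83, 1.53 and 5.94 in the labelled OE libraries, a mean 227 times lower (-7.75 ± 0.40, adjusted p = 1.2e-06). LAMA3 kept a level of 52.2, 43.2 and 39.8 CPM against 161, 104 and 114, a 2.80-fold fall (-1.45 ± 0.19, adjusted p = 0.00019). The difference between the falls of LAMB3 and LAMA3 was not tested. ITGB4 had 668, 437 and 583 CPM and 6.76, 6.13 and 6.69 (-6.20 ± 0.17, adjusted p = 8.3e-08), and ITGA6 had 965, 828 and 1061 and 28.4, 24.7 and 34.9 (-4.98 ± 0.15, adjusted p = 1.1e-07). All 4 hemidesmosome partners fell with them, PLEC (plectin) from 3098 ± 641 to 172 ± 13.8 CPM and the tetraspanin CD151 from 491 ± 38.6 to 151 ± 20.6.

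Other laminin and collagen receptor chains fell as well. ITGA3 had 1993, 1735 and 2160.4 CPM in EV and 15.8, 17.3 and 17.0 in the labelled OE libraries (-6.79 ± 0.12, adjusted p = 1.5e-08). ITGA2 had 776, 615 and 628 CPM and 13.0, 13.7 and 16.5 (-5.45 ± 0.14, adjusted p = 7.0e-08). ITGA10, an α chain of cartilage collagen receptors, had 118, 40.1 and 232 CPM and 0.689, 0.676 and 0.589 (-5.99 ± 0.54, adjusted p = 2.5e-05). In each gene the lowest EV library was far above the highest of the other group, although the EV libraries of ITGA10 ranged from 40.1 to 232. ITGA7, the muscle laminin receptor chain, went the other way, with 0.286, 0.822 and 0.353 CPM in EV and 26.0, 24.1 and 22.7 in the labelled OE libraries (4.10 ± 0.21, adjusted p = 9.9e-07).

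The β chains had a median difference of -3.53. ITGB3 had 25.3, 38.0 and 84.2 CPM in EV and 0.877, 0.811 and 0.642 (-4.65 ± 0.39, adjusted p = 1.7e-05), and ITGB8 had 64.3, 42.8 and 76.3 and 1.75, 6.94 and 3.64 (-3.70 ± 0.38, adjusted p = 5.6e-05). ITGB1, the common partner, kept 190.3, 128 and 152 CPM against 1714, 1463 and 1653, a 10.3-fold fall (-3.37 ± 0.16, adjusted p = 7.3e-07). ITGB6 was under the minimum, with 24 reads over the 3 EV libraries and none over the other 3, which is at least 7.75-fold lower when the empty group is set to 3 reads. None of the 7 β chains listed was higher, also after median-of-ratios scaling.

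Among the α chains that rose, ITGA8 had no read in any EV library and 22.2, 27.0 and 25.6 CPM in the labelled OE libraries, at least 493-fold higher against 3 reads over the EV group (adjusted p = 2.5e-07). ITGA2B, the platelet α chain, had 0.619, 0 and 0.118 CPM in EV and 17.0, 17.9 and 15.5 (3.87 ± 0.23, adjusted p = 2.5e-06). ITGA4 had 1 read in all EV libraries and 326 in the other group, a ratio of 337 (95% exact interval 60.01 to 13341, for counting error only), and shares 2813 of its 10654 exon bases with CERKL on the other strand. The leukocyte chains ITGAD and ITGAL had no EV read and were at least 18.2-fold and 11.0-fold higher, from 53 and 32 reads. ITGAE (0.63 ± 0.20, adjusted p = 0.02) and, among the falls, ITGAV (-0.59 ± 0.23, adjusted p = 0.045) were called in only 7 and 8 of 13 alternatives. ITGAV was lost with no minimum and without EV replicate 1 or 3 or labelled OE replicate 2 or 3, and ITGAE without EV replicate 1 or labelled OE replicate 2 or 3. ITGAE was also lost after median-of-ratios scaling, with edgeR and with DESeq2, where its difference was 0.30 in each.

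Other laminin chains went in both directions. LAMA5 and the β chains LAMB1 and LAMB2 fell, with LAMA5 from 879.7 ± 176 to 94.2 ± 7.66 CPM. LAMC1, the γ chain of most laminins, was the only one of the 29 chains that was not called, with 370.4, 249 and 339.6 CPM in EV and 319, 187 and 238 (-0.38 ± 0.22, adjusted p = 0.15). It was called lower after median-of-ratios scaling, by edgeR and by DESeq2, without labelled OE replicate 1 and with the replicate block (adjusted p of 0.0068 to 0.46 over 13). LAMA1, LAMA4, LAMC3 and LAMA2 rose, and were singled out after their values were seen. LAMA1 had 0, 0.193 and 2.29 CPM and 10.1, 13.5 and 9.74 (2.93 ± 0.42, adjusted p = 0.00038), and LAMA4 had 15.9, 17.5 and 16.6 and 43.9, 76.9 and 59.5 (1.76 ± 0.20, adjusted p = 0.00011). LAMC3 had no EV read and 8.08, 5.41 and 6.10 CPM, at least 125-fold higher. LAMA2 (0.80 ± 0.26, adjusted p = 0.025) kept its call in 7 of 12 alternatives and lost it without EV replicate 1 or labelled OE replicate 3, after median-of-ratios scaling, with edgeR and with DESeq2.

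**Figure D3:**
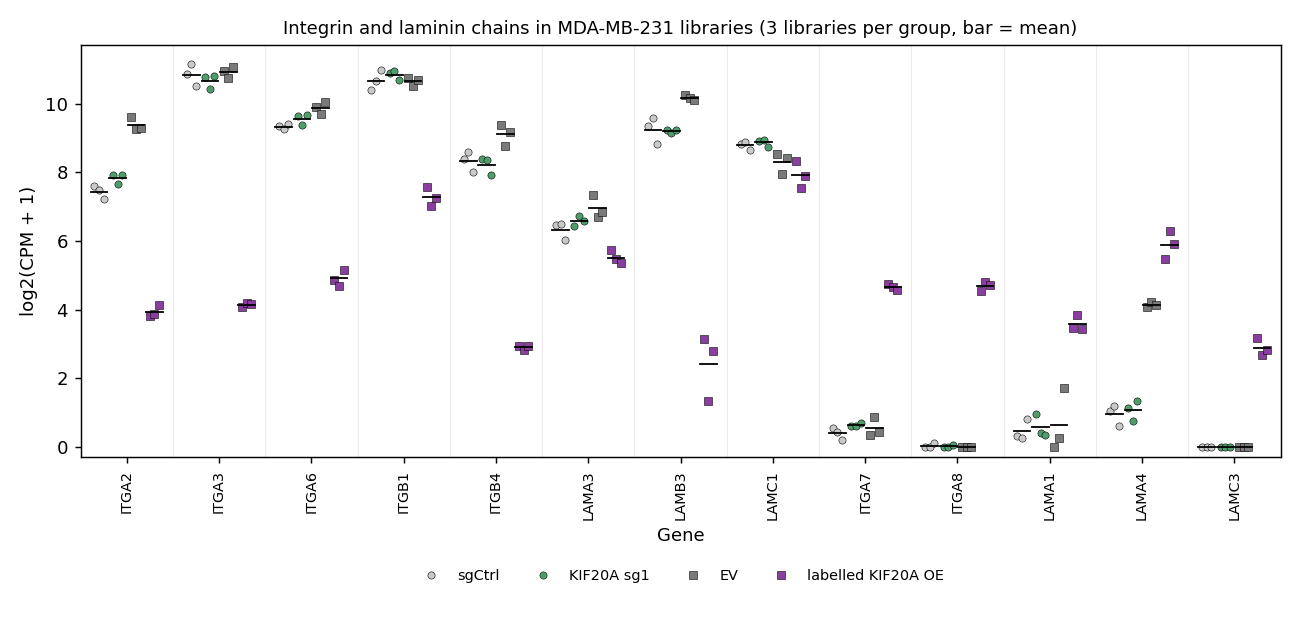
Level of 13 chains as log2(CPM + 1) in each library labelled MDA-MB-231, of the sgRNA experiment (circles, with deposited units in place of CPM) and of the EV experiment (squares), with the mean as a bar. The labelled OE libraries lie far below EV for ITGA3, ITGB4 and LAMB3, close to it for LAMC1 and above it for ITGA7, ITGA8 and LAMC3.

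**Figure D4:**
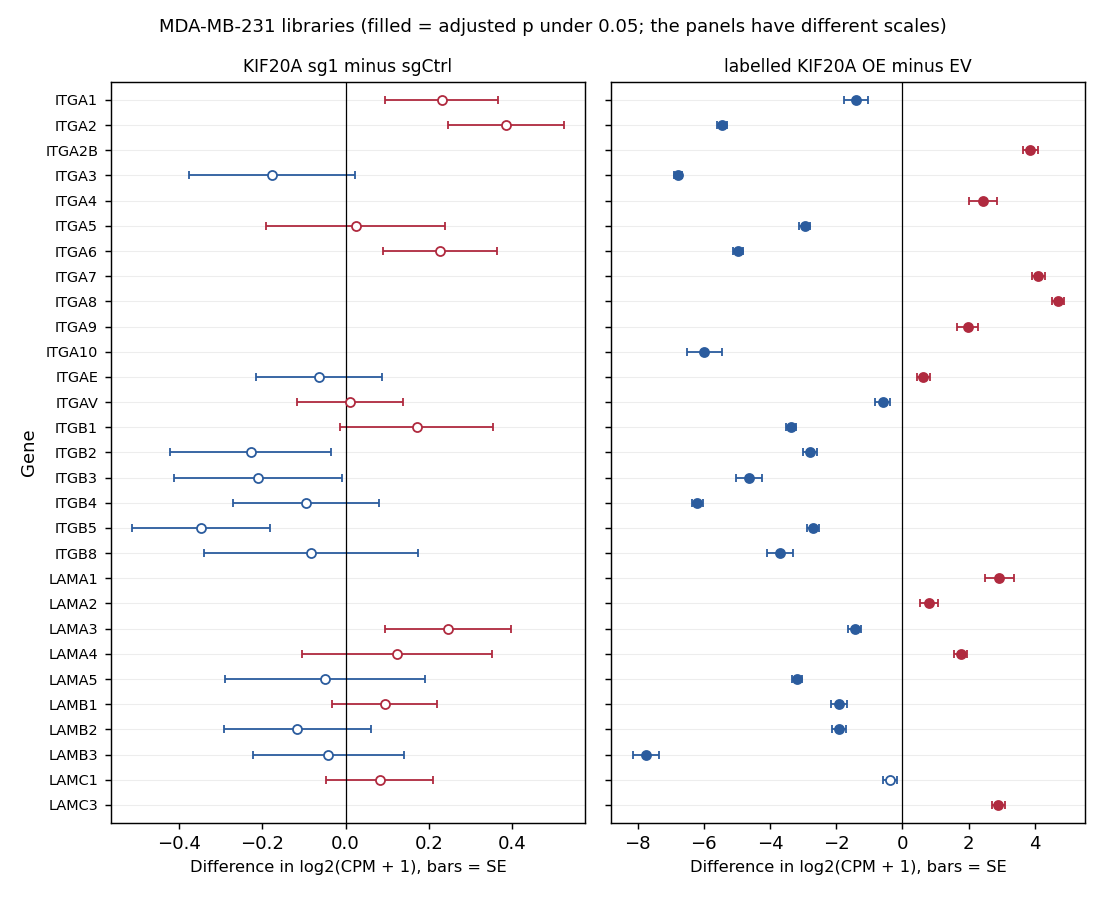
Difference in log2(CPM + 1) with its SE for each chain tested, KIF20A sg1 minus sgCtrl on the left (deposited units in place of CPM) and labelled KIF20A OE minus EV on the right, on different scales. No point is filled on the left, and 28 of 29 are filled on the right, LAMC1 being the exception.

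The partner genes of the same comparison are given by their counts, beside 23.4% of all genes called lower and 46.2% called higher. Of 24 adhesion plaque genes 17 were lower and 2 higher, PARVB (β-parvin, from 0.0793 ± 0.137 to 69.8 ± 1.68 CPM) being one of them. TNS2 (tensin 2) fell from 80.0 ± 9.38 to 8.61 ± 0.434 CPM and TGFB1I1 (HIC-5) from 138 ± 6.12 to 17.7 ± 2.43. Among 13 ligands 9 were lower and 3 higher, FN1 falling from 1663 ± 415 to 27.4 ± 2.12 CPM, and CCN2 (CTGF) from 708 ± 189.9 to 27.8 ± 9.33. Among 6 non-integrin laminin receptors 4 were lower and 1 higher, the syndecan SDC4 falling from 274 ± 41.7 to 33.3 ± 6.13 CPM. Basement membrane genes split, 6 lower and 4 higher of 10, with NID1 (nidogen 1, which links laminin to collagen IV) rising from 0.0317 ± 0.055 to 219 ± 15.6 CPM and NID2, its paralog, from 0.413 ± 0.0712 to 26.9 ± 6.94. Of 11 regulators 7 were lower and 3 higher, CD82 falling from 127 ± 33.5 to 4.67 ± 0.778 CPM and CD9 from 283 ± 6.45 to 40.3 ± 6.93. Medians were -1.61 for the plaque genes and -2.93 for the ligands, beside 0.37 over all genes.

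Both control groups of MDA-MB-231 were set side by side, with no test because the tables were scaled separately. ITGA3 (1875 ± 416 in sgCtrl and 1963 ± 214 in EV, SD, n = 3) and ITGB1 (1654 ± 332.5 and 1610.1 ± 131) had like levels. ITGA10 had 0.651 ± 0.403 units in sgCtrl and 130.2 ± 96.7 CPM in EV, ITGB8 1.78 ± 0.414 and 61.1 ± 16.9, LAMA4 0.962 ± 0.403 and 16.7 ± 0.848, and ITGB3 4.81 ± 1.25 and 49.2 ± 31.0. These 4 chains are those with the highest ratios of EV to sgCtrl. Experiment, batch and scaling cannot be told apart in these values.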

How the data were processed

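Paired-end, stranded poly-A libraries were sequenced by the authors and mapped to GRCh38. HISAT2 2.0.5 and featureCounts 1.5.0-p3 stand in the submitters' processing notes without a role, and the strand setting of the counting is not given in the sources used here. The authors deposited TPM (read counts scaled for gene length and depth) for Hs578T and HCC70, CPM for the EV experiment, and for the sgRNA experiment values called CPM that are reads divided by 1 factor per library (977394 to 1028621 per library). The latter deposited values are treated here as a signal and called units. Whole reads were recovered from the steps of the values, with 100% of nonzero values within 0.01 of a whole read in both MDA-MB-231 tables. For TPM, recovery was checked on simulated data, where 98.1% of 2938 genes came out exact and the rest divided by a whole number, so read totals there may be slightly low.

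A minimum mean of 1 in the 6 libraries of a comparison was set, and genes above it were tested on log2(value + 1) with limma 3.58.1 (R 4.3.3), trend on, two-sided, with Benjamini-Hochberg adjustment within a comparison at 0.05. The fold change on this scale understates changes of low genes. The interaction used the 12 sorted libraries. Alternatives were a pseudocount of 0.1, no minimum, a minimum of 5, median-of-ratios scaling, the replicate number as a block, leaving out each library, and edgeR 4.0.16 and DESeq2 1.42.0 on the recovered whole reads. The interaction was not fitted with no minimum, with edgeR or with DESeq2. Exact permutation tests of 3 against 3 libraries cannot go below p = 0.1 and were not used. On simulated data limma found 200 of 200 changed genes in each of the 4 comparisons, 100 each at a log2 change of 1 and of 2. It also called 7 to 16 unchanged genes per comparison. Only genes with a mean over 100 reads were changed. The spread between simulated replicates was a fixed setting, not taken from these libraries. The simulation therefore does not show what limma finds at smaller changes or at the spread of these libraries. Whether replicates were separate cultures is not stated beyond "biological triplicates".

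By rule, chains were named where called with a group mean of at least 10, up to 12 by size, with ITGA6, ITGB4, LAMA3 and LAMB3 always given. Other chains given with values, such as ITGA1 and ITGAV in Hs578T or ITGA3 in HCC70, lie outside this rule. Their choice was not fixed in advance. One further gene that the symbol rule matches is not reported here and is in no count of chains, though it stayed in the fits over all genes. Genes of the partner lists were named by the smallest adjusted p, up to 3 a list. Members and lists were chosen with earlier results of these data known. Sequences are from RefSeq, exon overlaps from GENCODE 44. Intervals and floors (3 reads over a group) cover counting error only.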

Additional observations from a re-analysis of the deposited data

Results flagged for a closer look

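The BCSC difference of 7 chains differed between HCC70 and Hs578T by the interaction test of limma over 12 libraries, each value being HCC70 minus Hs578T on the log2(TPM + 1) scale. LAMA4 had 0.72, with a difference of -0.69 in Hs578T and 0.03 in HCC70. ITGA7 had 0.53, ITGA5 0.49, LAMB2 0.40 and ITGA1 0.39. ITGA2 had -0.34 and LAMA3 -0.32, both with positive differences in each line. The lines were deposited as separate tables, so line and batch cannot be told apart in these values.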

How the results depend on the processing

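Libraries of the same replicate number had correlations of -0.16 to 0.19 after centring within each group. With 3 libraries a group, these values cannot settle whether replicates were paired. With the replicate block, calls of all genes went from 953 to 669 in Hs578T, 374 to 128 in HCC70 and 830 to 302 for the interaction, where 1 chain of 7 passed. In Hs578T edgeR called 1646 genes, and leaving out 1 library gave 342 to 880. Chains called higher there were 4, and 7 with edgeR or DESeq2 and 4 to 4 without 1 library. Chains called lower were 4, and 7 with DESeq2 and 1 to 5 without 1 library (1 without non-BCSC replicate 2). In HCC70 the gene count was 178 with no minimum, 231 after median of ratios, 715 with edgeR, 1178 with DESeq2 and 32 to 247 without 1 library. Chains called higher there were 0, and 2 with a minimum of 5, 2 with edgeR, 4 with DESeq2 and 0 to 1 without 1 library (1 without non-BCSC replicate 1), and 1 was called lower by edgeR and by DESeq2 (LAMA5), 0 to 0 without 1 library. In the sgRNA experiment DESeq2 called 16 genes, and leaving out 1 library gave 0 to 144 (144 without sgCtrl replicate 3, 5 without KIF20A sg1 replicate 2), never a chain. In the EV experiment calls ranged from 9700 to 10289 without 1 library, chains called higher were 6 with a minimum of 5 and 8 to 10 without 1 library, and chains called lower 17 to 19. The interaction gave 291 to 1225 genes and 1 to 9 chains without 1 library. It left LAMA4 alone without Hs578T BCSC replicate 1 or 2, 2 chains without Hs578T non-BCSC replicate 2 or HCC70 BCSC replicate 1 or 2, 3 without Hs578T non-BCSC replicate 3 and 4 without HCC70 non-BCSC replicate 3 or BCSC replicate 3.

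Signs changed only for values that were not called, the largest being 0.20 for LAMA5 in Hs578T, which turned negative without BCSC replicate 2. In the sgRNA experiment LAMB3 was 0.00688 and 0.125 without sgCtrl replicate 1 and 2 (range -0.255 to 0.125) and ITGB4 0.0362 and 0.0512 without sgCtrl replicate 2 and KIF20A sg1 replicate 3 (range -0.256 to 0.0512). Of 1516 recomputed differences 47 changed sign, none of them of a called chain. The causes were not tested. With 3 libraries a group, and low read totals for LAMA4 and ITGB4 in Hs578T, small differences could be missed.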
